A study of Andropogon gerardi with 32 samples.

Results

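MPK4, a symbol that stands for a MAP kinase of stress signalling, and hsp70-4, a chaperone gene of the Hsp70 family, were followed in leaves of big bluestem (Andropogon gerardii) under ambient and altered rainfall. They are 2 of the 506 gene symbols that the platform annotation assigns to probes, and their members are all probes carrying either symbol: probes 398 and 5089 for MPK4 (Entrez gene 542594) and probe 6010 for hsp70-4 (Entrez gene 542730), 3 of 10447 probes on the array. All 3 had values in at least 8 samples of each group and were tested. Total RNA came from 16 leaf samples of ambient-rainfall plots or plants and 16 of altered-rainfall plots or plants. The labels do not say how rainfall was altered, and they give no plant age, genotype or sampling time. Nor do they say whether the samples of a group are separate plots or plants, and p-values cover the variation among these samples, which may in part be technical.

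In a MAP (mitogen-activated protein) kinase cascade, a receptor or stress signal is passed along a chain of kinases, and the last kinase, of the family to which MPK4 belongs, phosphorylates transcription factors and other proteins. In Arabidopsis, the protein named MPK4 acts below the kinases MEKK1, MKK1 and MKK2, restrains salicylic acid-dependent defence, and is activated by cold, osmotic stress and wounding. Whether the probes named MPK4 here target its direct counterpart is not given. Hsp70 proteins are ATP-driven chaperones that bind exposed hydrophobic stretches of unfolded proteins, and in plants members of the family are induced by heat and by water deficit. The symbols and gene identifiers in the annotation follow maize naming, and whether the spots measured the matching big bluestem transcripts was not tested.

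Sample titles are numbered, with 1 ambient and 1 altered sample per number, and the spots without a value were identical within each of the 16 numbers. Same-numbered samples were therefore read as the channels of an array, called here array 2, array 3 and so on. Spots with a value ran from 1833 to 9530 per array, and the median log2 intensity of altered samples differed from that of the ambient sample on the same array by between -1.18 and 2.61. Array 9 stood apart: its channels correlated at r = 0.05 across probes, and its ambient sample had the lowest mean correlation with the other samples of its group (0.39, against a median of 0.69). Array 7, with 1833 spots, had channels correlated at r = -0.31 and the lowest value among altered samples (0.32, median 0.63). Array 19 had 2323 spots, but its ambient (0.68) and altered (0.65) samples correlated with their groups near the medians. Some results are also given without array 9, or without arrays 7, 9 and 19 together. For leaf tissue, the chlorophyll a/b-binding gene Cab-m7 was the only marker with a symbol. The median position of its probes among the spots of a sample was 99.8% for one and 44.6% for the other, where 100% is the brightest spot. Of these 2 probes, 1 was itself called lower under altered rainfall, and its part in the results at MPK4 and hsp70-4 was not tested.

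MPK4 at probe 5089 was lower on average under altered rainfall, and whether the fall passed the test depended on the scaling. The deposited intensity of the spot ran from 9.45 to 211 with a median of 111 in the 10 ambient samples that had a value, and from 9.52 to 431 with a median of 22.4 in the 10 altered samples. The groups overlapped over nearly their whole range, but only 1 altered sample exceeded the ambient median. After quantile normalization between samples the ambient level was 6.73 ± 0.73 (SD, n = 10) and the altered level 4.87 ± 1.13 (SD, n = 10) log2 units. In the main fit, which did not pair the samples of an array, the fall was 1.86 ± 0.41 (SE) log2 units, so the altered level was 3.63-fold lower (change -1.86, 95% confidence interval -2.70 to -1.02; limma, adjusted p = 0.0026 over all 6384 tested probes). With the array as a block, which pairs them, the interval was -2.88 to -0.84 (limma, adjusted p = 0.025). In bulk leaf RNA, fewer cells that express a gene and less RNA per cell cannot be told apart. Probe 5089 was the 1 of the 3 MPK4 and hsp70-4 probes that passed the threshold of 0.05, and over all tested probes 9.02% passed; falls that passed made up 4.98% of tested probes. A change of smaller size was found for 97.4% of tested probes, and the median change of all tested probes was 0.10.

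Array by array, the normalized difference at probe 5089 was negative on 8 of 10 arrays. It was strongly negative on array 12 (-3.93), array 18 (-3.67), array 17 (-3.62) and array 6 (-2.94). Array 10 (-2.26), array 9 (-1.82) and array 14 (-0.91) were intermediate, array 3 was near 0 (-0.04), and array 2 (0.15) and array 11 (0.42) were slightly positive. With within-array loess the difference was negative on 7 of 10 arrays, with a median of -1.08 against -2.04 after quantile normalization. Array 9 then stood at 0.03 and array 11 at -0.73. On array 18 the deposited intensities were 203 in the ambient and 11.6 in the altered sample, and on array 17 they were 120 and 16.8. The 4 arrays with the most negative differences held ambient spots at 120 to 211 and altered spots near the dim end of their sample. In position, the spot stood at a median of 56.9% among the spots of an ambient sample and at 6.54% in an altered sample. Array 11 ran the other way in the deposited values, with 9.45 in the ambient and 100 in the altered sample, as did array 2 (75 and 431) and array 10 (35 and 78.5). The altered sample as a whole was brighter on these 3 arrays, by 1.98, 2.53 and 2.53 log2 units in the median spot.

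The size of the fall depended on scaling. Without normalization the change at probe 5089 was -1.28, short of the threshold (limma, adjusted p = 0.21), and with within-array loess, the usual treatment of 2-channel arrays, it was -1.63 and narrowly missed the threshold (limma, adjusted p = 0.053). With the array as a block it passed (limma, adjusted p = 0.025), and without the block it passed when any 1 array was left out (adjusted p between 0.00096 and 0.014). With the block it passed narrowly without array 9 (limma, adjusted p = 0.049) and did not pass without arrays 7, 9 and 19 together (-1.85; limma, adjusted p = 0.055), both settings chosen after the data were seen. Without the block, no left-out array moved the change beyond the range from -2.10 to -1.64.

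**Figure D1:**
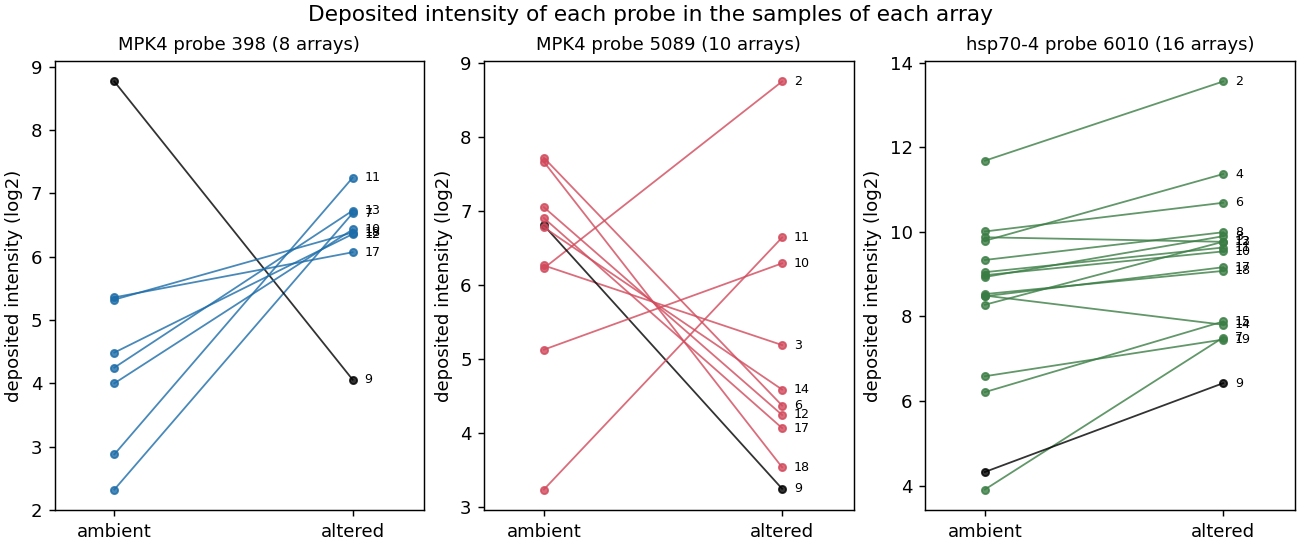
Deposited intensity (log2, vertical axis) of each probe in the ambient and altered sample of each array, joined by a line and labelled with the title number; array 9 is in black. Lines for MPK4 probe 5089 fall on 7 of 10 arrays, those for MPK4 probe 398 rise on 7 of 8, and those for hsp70-4 probe 6010 rise on 14 of 16.

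At the other MPK4 probe, 398, no change passed, and its direction depended on the scaling. Only 8 arrays gave it a value, and the ambient intensities there were 5, 7.35, 16, 19, 22.4, 40, 41 and 436. The altered intensities ran from 16.7 to 152 with a median of 84.8. On the deposited scale 7 of the 8 arrays were higher under altered rainfall, by as much as 20.7-fold on array 11 and 20.6-fold on array 7. Array 9 was the exception: its ambient sample, at 436, was 26.2-fold brighter than its altered sample, at 16.7. All other ambient samples lay at or below 41, and all other altered samples at or above 67.2. On this scale, which keeps the brightness of whole samples, array 9 alone made the groups overlap. The median spot of the altered sample was brighter by 2.61, 2.53, 1.98, 0.61 and 1.12 log2 units on arrays 7, 10, 11, 12 and 13. On arrays 9, 17 and 18 it was dimmer (-1.18, -0.24 and -0.07). Array 9 was set aside here with its values known, and the share of all probes that separate in this way was not computed. The median change of all tested probes on this scale was 0.57. The separation is therefore not read as a trait of probe 398.

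After quantile normalization the ambient level at probe 398 was 5.63 ± 1.40 (SD, n = 8) and the altered level 5.98 ± 0.57 (SD, n = 8), a difference of 0.35 ± 0.49 (SE) that did not pass (95% confidence interval -0.65 to 1.35; limma, adjusted p = 0.73). The normalized difference was positive on 6 of 8 arrays, between 0.80 on array 17 and 1.63 on array 18. It was -0.84 on array 10, where the deposited values had risen from 16 to 86.2, and -3.55 on array 9. Without array 9 the change was 0.91 and still did not pass (limma, adjusted p = 0.15). With within-array loess the direction turned, to -0.45 (limma, adjusted p = 0.65). Loess with array 9 left out, a setting chosen after the data were seen, gave 0.11 (limma, adjusted p = 0.88). Without normalization the difference was 1.57 (limma, adjusted p = 0.17). The ambient SD at this probe, 1.40, exceeded that of 93.7% of tested probes, and the altered SD that of 8.32%. The wide ambient spread rested on array 9: without it the ambient SD was 0.35, which exceeded that of 0.407% of tested probes. The spot stood at a median position of 11.0% in ambient and 34.0% in altered samples. By mean normalized level over all samples, 7.63% of tested probes were dimmer than probe 398 and 7.79% were dimmer than probe 5089, although the latter stood near the middle of ambient samples.

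**Figure D2:**
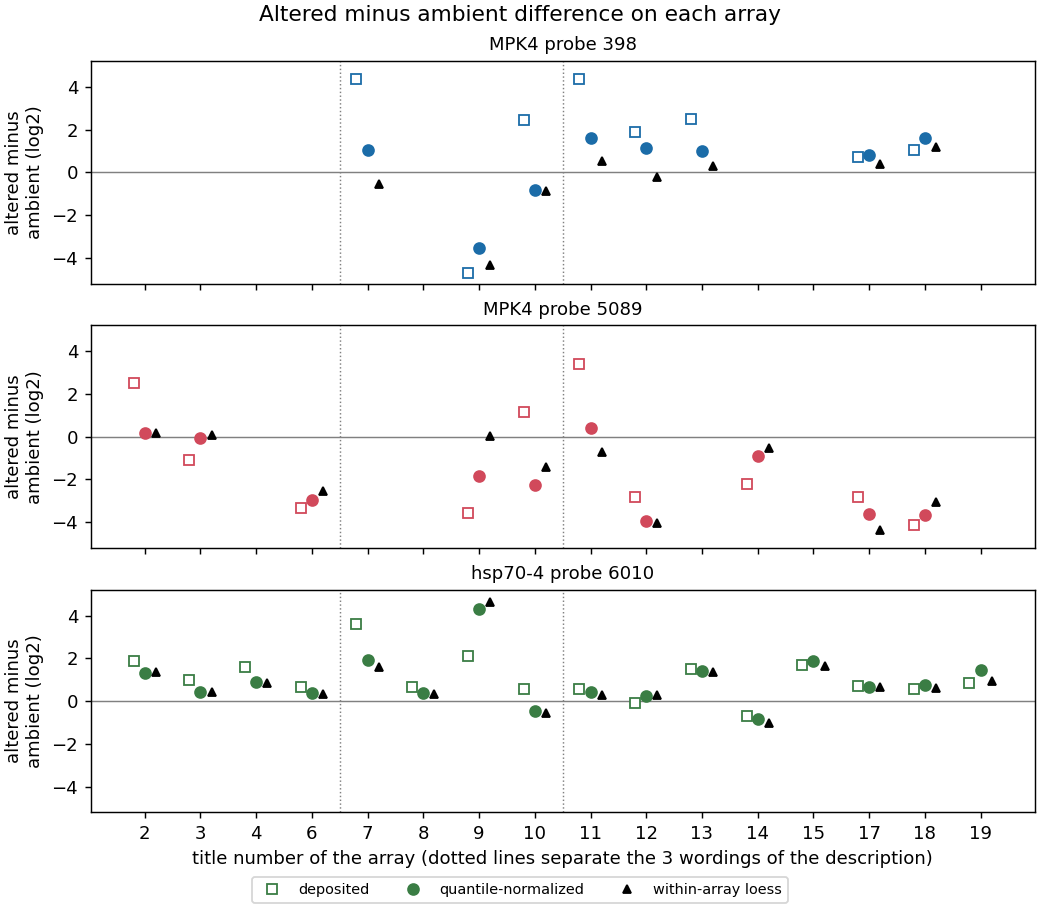
Altered minus ambient difference (log2, vertical axis) of each probe on each array (title number, horizontal axis), from the deposited values, after quantile normalization and after within-array loess. MPK4 probe 5089 lies below 0 on 8 of 10 arrays after quantile normalization, and array 9 holds the lowest value of MPK4 probe 398 (-3.55) and the highest of hsp70-4 (4.29).

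The annotation gives both MPK4 probes the same sequence accession, so they stand for the same transcript as far as it says. Values in both were present on 6 arrays (9, 10, 11, 12, 17 and 18), and on 4 arrays (4, 8, 15 and 19) neither probe had one. On the 6 shared arrays the mean normalized difference was -2.48 ± 1.66 (SD, n = 6) at probe 5089 and 0.13 ± 2.02 (SD, n = 6) at probe 398. The differences had the same sign on 3 of the 6, negative at both probes on arrays 9 and 10 and positive at both on array 11. On arrays 12, 17 and 18 probe 398 was higher and probe 5089 lower in the altered sample, and the difference at probe 5089 was lower by 5.07, 4.42 and 5.30 log2 units. Array 9 was the only one on which probe 5089 had the higher difference, by 1.73. The mean gap between the probes was -2.61 log2 units, with probe 5089 lower on 5 of 6 arrays (exact sign-flip permutation test, two-sided, p = 0.13, adjusted over 3 pairs of probes p = 0.19). With within-array loess the gap was -1.71 (exact p = 0.25). With 6 arrays the smallest p that this test can give is 0.031. A call at probe 5089 and none at probe 398 therefore do not show that the probes differ.

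Other genes on the array with a shared accession give a scale for this gap. Leaving MPK4 out, 10 pairs of tested probes shared an accession, and the changes of the probes of a pair differed by a median of 0.33 and at most 0.89 log2 units. The MPK4 probes differed by 2.21 in the same fit, each over its own arrays. In 8 of the 10 other pairs the changes had the same sign, and the array-by-array differences correlated above 0 in all 10 (median r = 0.56, over at least 10 arrays each). The MPK4 pair gave r = -0.14 over 6 arrays. These values describe the pairs and were not tested, since the MPK4 pair was singled out with its values known. The MPK4 probes had values on 8 and 10 arrays, and only 7.63% and 7.79% of tested probes were dimmer. The levels of the other pairs were not compared with theirs.

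**Figure D3:**
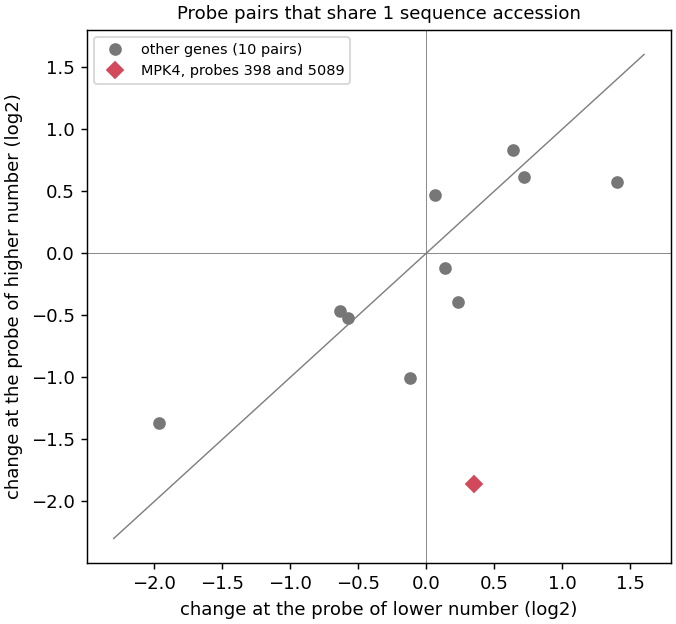
Change at the probes of each pair that shares a sequence accession (altered minus ambient, log2, on both axes), for the 10 pairs of other genes and the MPK4 pair; the diagonal line marks equal change. The MPK4 point (0.35 and -1.86) lies farther from the line than the 10 others.

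The chaperone gene hsp70-4 was measured on every array, and its values were higher under altered rainfall on most arrays. The difference did not pass in the main fit, which left the samples of an array unpaired. With the array as a block it passed narrowly. The deposited intensity at probe 6010 ran from 15 to 3281 with a median of 429 in the 16 ambient samples, and from 85.7 to 12017 with a median of 767 in the 16 altered samples. The groups overlapped broadly: 1 altered sample (array 2) lay above all ambient samples, and 3 ambient samples lay below all altered ones. These 3 were on array 7 (15), array 9 (20) and array 15 (74). The spot was bright in most samples, at a median position of 92.7% among the spots of ambient and 95.3% among those of altered samples. On array 9 it stood at 0.551% in the ambient sample and at 65.8% in the altered sample, the lowest position of each group.

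The normalized level of hsp70-4 was 8.30 ± 1.85 (SD, n = 16) in ambient samples and 9.25 ± 1.08 (SD, n = 16) in altered ones. The difference was 0.94 ± 0.48 (SE) log2 units (95% confidence interval -0.02 to 1.90; limma, adjusted p = 0.24), and it was positive on 14 of 16 arrays. With the array as a block the same difference passed (SE 0.29, 95% confidence interval 0.34 to 1.54; limma, adjusted p = 0.044), in a fit that called 9.21% of tested probes. That call also held without array 9 (0.72; limma, adjusted p = 0.048). It was lost without arrays 7, 9 and 19 together (0.58; limma, adjusted p = 0.13), all of which had positive differences (1.94, 4.29 and 1.48). Both of these settings were chosen after the data were seen. Without the block the difference did not pass when array 9 was left out (0.72; limma, adjusted p = 0.26) or array 7 (0.88; limma, adjusted p = 0.29). Within-array loess gave 0.86, short of the threshold (limma, adjusted p = 0.076), and with median centring of each sample it was 0.42 (limma, adjusted p = 0.75), with 12 of 16 arrays positive.

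The size of the hsp70-4 difference varied between arrays from -0.84 to 4.29, with a median of 0.70. Array 9 gave 4.29, from a deposited 20 to 85.7, and array 7 gave 1.94, from 15 to 181. Differences of 1.86, 1.48 and 1.42 were found on array 15, array 19 and array 13, and 1.31 on array 2, which held the brightest spots of both groups (3281 and 12017). In the ambient samples of arrays 7, 9, 15 and 19 the spot stood at a position between 0.551% and 58.7%, and in those of all other arrays at 81.8% or higher. On the other 8 arrays with a positive difference it lay between 0.26 (array 12) and 0.89 (array 4). The negative values were -0.48 on array 10 and -0.84 on array 14. On array 10 the deposited intensity had risen, from 503 to 742, on an array whose median spot was 2.53 log2 units brighter in the altered sample. On array 14 it fell both as deposited, from 360 to 223, and after quantile normalization. The median spot there was dimmer in the altered sample (-0.74 log2 units), and with median centring the difference was 0.055. The ambient SD of hsp70-4, 1.85, exceeded that of 99.1% of tested probes, and its altered SD that of 77.6%. Without array 9 the ambient SD was 1.18, larger than that of 88.0% of tested probes.

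**Figure D4:**
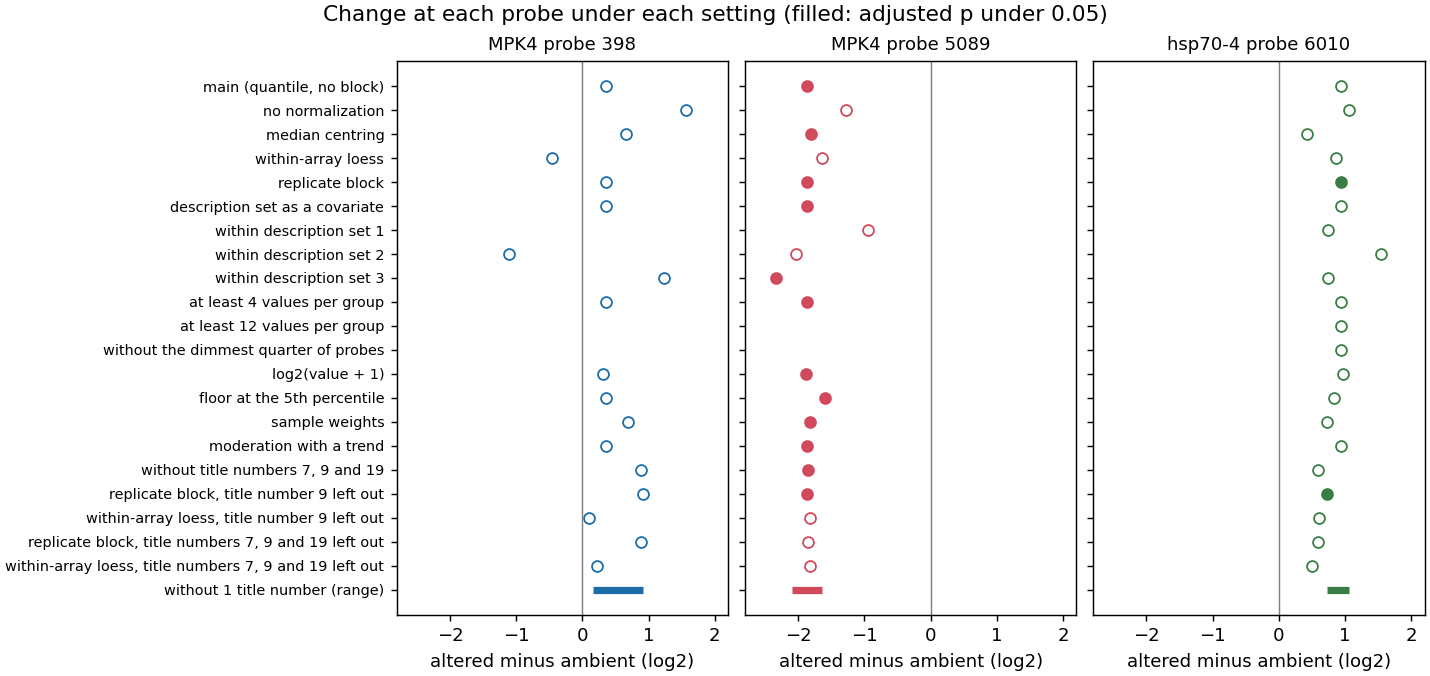
Change at each probe (altered minus ambient, log2, horizontal axis) under each setting of the analysis; filled points had an adjusted p under 0.05 and the bar spans the values with 1 title number left out. MPK4 probe 5089 lies below 0 in every setting that tested it, hsp70-4 lies above 0 in every setting and is filled in 2 of the 3 fits with a replicate block, and MPK4 probe 398 lies on either side of 0.

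The sample descriptions have 3 wordings, which follow arrays 2 to 6, 7 to 10 and 11 to 19 and may mark batches. The mean normalized difference at hsp70-4 was 0.75 ± 0.45 (SD, n = 4), 1.54 ± 2.09 (SD, n = 4) and 0.75 ± 0.85 (SD, n = 8) in these sets, and an interaction between rainfall and set was not detected (moderated F-test in limma over 3973 probes, adjusted p = 0.999, unadjusted 0.73). At MPK4 probe 5089 the means were -0.94 ± 1.73 (SD, n = 3), -2.04 ± 0.32 (SD, n = 2) and -2.34 ± 1.98 (SD, n = 5), so the sign of the mean was the same in each set. In the first set the mean rested on array 6 (-2.94), with 0.15 on array 2 and -0.04 on array 3. At MPK4 probe 398 the first set had no value, the mean was -1.12 in the 3 arrays of the second, which include array 9, and 1.23 ± 0.37 (SD, n = 5) in the third, where all 5 arrays were positive. A fit within arrays 11 to 19 alone called probe 5089 (-2.34; limma, adjusted p = 0.029) and did not call probe 398 (limma, adjusted p = 0.073) or hsp70-4 (limma, adjusted p = 0.42). The MPK4 probes had too few values in some sets for the interaction test.

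The changes of the genes were also compared with each other. The difference at hsp70-4 exceeded that at MPK4 probe 5089 by 2.57 log2 units on average and did so on 9 of the 10 arrays that measured both (exact sign-flip permutation test, two-sided, p = 0.0039, adjusted over 3 pairs p = 0.012). Array 11 was the exception, with 0.40 at hsp70-4 and 0.42 at probe 5089. On the deposited values, where the brightness of a whole channel cancels between probes of an array, the gap was 2.00, in the same direction on 7 of 10 arrays (exact p = 0.045, adjusted p = 0.13). With within-array loess the gap was 2.34, in the same direction on 9 of 10 arrays (exact sign-flip permutation test, p = 0.0059, adjusted p = 0.018). Against MPK4 probe 398 the mean gap was 0.80 over 8 arrays, with hsp70-4 higher on 4 (exact p = 0.75, adjusted p = 0.75), and it turned to -0.39 on the deposited values and to -0.20 without array 9. With within-array loess it was 1.57, with hsp70-4 higher on 6 of 8 arrays (exact p = 0.094, adjusted p = 0.14).

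Array-by-array covariation of MPK4 and hsp70-4 was not detected. Over the 10 arrays with both, differences at probe 5089 and at hsp70-4 correlated at Pearson r = 0.02 (permutation p = 0.96) and Spearman rho = 0.12 (permutation p = 0.76), and r was -0.01 without arrays 11 and 2, the farthest from the median of probe 5089. Over 8 arrays probe 398 and hsp70-4 gave r = -0.67 (exact permutation p = 0.11) and rho = -0.19 (exact permutation p = 0.66). That r rested on array 9, where probe 398 had its lowest and hsp70-4 its highest difference: without array 9 it was 0.51 (exact permutation p = 0.26), and without arrays 9 and 10, the farthest from the median, -0.37. On the deposited values, with array 9 kept, it was -0.025 (exact permutation p = 0.94). Between the MPK4 probes r was -0.14 (exact permutation p = 0.71) and rho -0.31 (exact permutation p = 0.56) over 6 arrays. Without arrays 9 and 10 this r was 0.52, but only arrays 11, 12, 17 and 18 remained, too few to read. Of 9 relations computed, for differences and for normalized levels within each group, none passed (smallest adjusted p = 0.50 for r and 0.79 for rho). The r that lay farthest from 0 was that of probe 398 and hsp70-4 among 8 ambient samples, -0.85 (exact permutation p = 0.078), and it was -0.18 without arrays 9 and 10. No set of arrays with a shared wording held 6 arrays for any pair, so no within-set r is given.

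**Figure D5:**
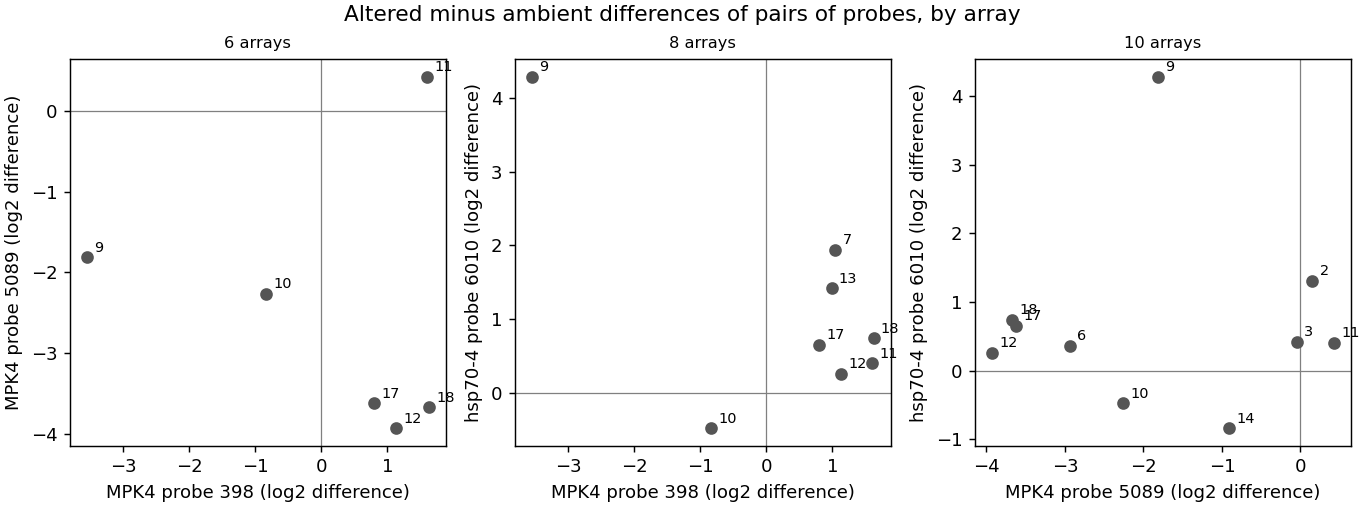
Altered minus ambient differences (quantile-normalized log2) of each pair of probes on the arrays that measured both, labelled by title number. Array 9 lies apart from the other arrays in the panels with hsp70-4, and the 10 arrays of probe 5089 and hsp70-4 show no common trend (r = 0.02).

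Among 342 other probes with a symbol that shared at least 12 arrays with hsp70-4, the array-by-array differences most like its own were those of LOC541901 (probe 2885, r = 0.81 over 14 arrays), LOC541808 (probe 5784, r = 0.75 over 13) and LOC541774 (probe 11256, r = 0.74 over 16). Without array 9 these values were 0.37, 0.25 and 0.21, so the likeness came largely from that array. None of these 3 probes passed the test between groups (changes of 1.04, 0.59 and 0.34; limma, adjusted p = 0.11, 0.37 and 0.62). Neither MPK4 probe shared 12 arrays with any probe, and no likeness is given for them. Of the other kinases of the cascade, other heat shock proteins and chaperones, and stress kinases and dehydration genes listed, none was recognised by a symbol, so the 2 MPK4 probes (1 lower, 0 higher) and hsp70-4 (not called without the block, called with it) were all that the lists held.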

How the data were processed

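The series table holds spot intensities on a linear scale, as deposited by the authors, for 10447 probes in 32 samples. Dyes, scanner, background correction and scaling are not given in the sources used here. In the deposited intensities 1 sample of an array holds whole numbers (within 1e-06) and the other multiples of a factor, the altered sample on 11 arrays and the ambient sample on 4, with neither scaled on 1. Whether the spots lay above background is unknown. Intensities at 0 (0.777% of values, none at these probes) were set missing. The rest were taken as log2 and quantile-normalized between samples. Sample groups came from the titles.

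Altered minus ambient was fitted with limma 3.58.1 under R 4.3.3 (lmFit, then eBayes; two-sided) over the 6384 probes with at least 8 values per group, with Benjamini-Hochberg adjustment and a threshold of 0.05. The fit was run on simulated data with independent samples, so that check does not cover samples that vary together. The main fit had no block. Samples of a number deviated from their group means together (r above 0.1 for 14 of 16 numbers, from -0.12 to 0.73 over 894 probes measured in all samples), and their missing spots were identical, so the block result is given where it changes a call. Gaps between probes were tested by exact sign flips over arrays, and correlations by permutation (100000 resamples for 10 arrays, exact enumeration below). Loess had a span of 0.4. The number of arrays and of spots with a value limits the precision. Alternatives were normalization, filters for dim or missing spots, log2(value + 1), a floor, weights, trend, sets and left-out arrays.

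Named probes are all those of both symbols and, for likeness, the 3 probes with a symbol and the highest r over at least 12 arrays. The members, the gene lists and the settings were chosen with earlier results of these data known. No nucleotide or protein sequence was used here.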

Additional observations from a re-analysis of the deposited data

How the results depend on the processing

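The fall at MPK4 probe 5089 kept its direction in all 18 settings that tested it, apart from left-out single numbers, and passed in 11. It did not pass without normalization (-1.28), nor with within-array loess (-1.63, and -1.82 without number 9 and also without 7, 9 and 19). Nor did it pass within numbers 2 to 6 (-0.94, 3 arrays) and 7 to 10 (-2.04, 2 arrays), or with the replicate block without 7, 9 and 19 (-1.85). The sets hold fewer samples, and the cause was not tested in any of these settings. MPK4 probe 398 passed in 0 of 17 settings and turned with loess (-0.45) and within numbers 7 to 10 (-1.12). The difference at hsp70-4 was positive in all 20 settings (0.42 to 1.54) and passed with the replicate block (0.94) and with the block without number 9 (0.72). The fits that join the block or loess with left-out numbers were chosen after seeing the data. Settings with at least 12 values per group or without the dimmest probes (the lowest 25%) left both MPK4 probes untested. Leaving out 1 number gave 0.17 to 0.91 for probe 398, -2.10 to -1.64 for probe 5089 and 0.72 to 1.06 for hsp70-4.

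Called probes numbered 576, 466 to 645 with 1 number left out, 343 without normalization, 20, 0 and 302 within numbers 2 to 6, 7 to 10 and 11 to 19, and 327 with loess without 7, 9 and 19. The share of rises among calls, 44.8%, was 75.5% without normalization (median change over all tested probes 0.57, against 0.10), 32.8% with median centring (median change -0.03), 25% within numbers 2 to 6, and 33.2% and 32.1% with loess without 9 and without 7, 9 and 19.

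The gap between the MPK4 probes, -2.61, lay between -3.48 and -2.07 with 1 number left out, was -1.71 with loess and -3.99 within numbers 11 to 19, and turned to 0.16 within numbers 7 to 10 (2 arrays). That of hsp70-4 over probe 5089, 2.57, lay between 2.18 and 2.86 with 1 number left out and did not pass as deposited or with median centring (2.00 in each), nor within the sets (1.64, 3.94 and 2.58), whose 2 to 5 arrays could not reach the threshold. That of hsp70-4 over probe 398, 0.80, was 1.57 with loess and 3.03 within numbers 7 to 10, turned to -0.39 as deposited and with median centring, to -0.54 within numbers 11 to 19 and to -0.39 without 7, 9 and 19, and lay between -0.20 and 1.09 with 1 number left out.

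The r between the MPK4 probes turned to 0.67 as deposited, 0.24 with median centring and 0.011 with a floor; with a number left out 5 arrays remain, fewer than the 6 asked for, and r was not computed. The r of probe 5089 and hsp70-4 turned to -0.43 with median centring and lay between -0.044 and 0.11 with 1 number left out. That of probe 398 and hsp70-4, -0.67, was -0.80 with loess (exact p = 0.082) and -0.025 as deposited (exact p = 0.94), turned to 0.64 without 7, 9 and 19 and lay between -0.92 (unadjusted exact p = 0.037, without number 10) and 0.51 (without number 9) with 1 number left out.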
